A study of Mus musculus with 6 samples.

Results

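Splicing factors of the SR, hnRNP, SF3 and PRPF families were followed in CD4-CD8- double-negative (DN) cells of the fetal mouse thymus, cultured with or without TCDD, a dioxin that activates the aryl hydrocarbon receptor (AHR). A gene was a member when a probe set on the array carried its symbol alone and that symbol began with Srsf, Hnrnp, Sf3a, Sf3b or Prpf (with a number after each but Hnrnp). This gave 46 genes on 123 probe sets, out of 12393 genes on 20380 probe sets with a single gene symbol. There were 9 SR genes on 28 probe sets, 18 hnRNP genes on 50, 9 SF3 genes on 22 and 10 PRPF genes on 23. The rule reads symbols and no measured values. Where a gene had several probe sets, the one with the highest mean signal over all 6 arrays stands for it.

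The lobes came from C57BL/6 mice at day 15 of gestation and were cultured for 6 days, to an age of gestation day 21. Medium with 10 nM TCDD or with the solvent dioxane was renewed every 2 days. Cells depleted of CD4 and CD8 carriers with magnetic beads were collected either from within the lobes, here called thymocytes, or from the buffer flushed off them, here called emigrants, and RNA of pooled cells was amplified before hybridisation to Affymetrix MOE430A arrays. Thymocytes gave 1 dioxane and 1 TCDD array, and emigrants 2 dioxane and 2 TCDD arrays. The labels number the TCDD emigrant arrays 1 and 2 and a dioxane array 2, and the dioxane emigrant array without a number is taken as 1. The labels name no genetic change in any group. A pair below is the TCDD and the dioxane array of the same source and number. The 3 pairs, called the thymocyte pair, emigrant pair 1 and emigrant pair 2, share no array. No source says that the emigrant arrays came from separate cultures, so a p-value here reflects the spread between these arrays alone, which may be technical.

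Splicing removes introns from RNA transcripts, and the spliceosome that carries it out is built anew on each intron. SR proteins bind exon sequences and recruit the spliceosome, whereas hnRNP proteins coat the transcript and often block or shift the choice of splice site. The SF3A and SF3B complexes belong to the U2 particle and hold the branch point, and most PRPF proteins belong to the U4/U6.U5 particle or to the complex that activates it. In T cells these proteins also set alternative exons, such as those of CD45, for which Hnrnpl and Hnrnpll are known regulators. The abundance of an RNA says nothing directly about splicing, which these arrays did not measure.

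Values are RMA signals on the log2 scale, on which a difference of 1 is a 2-fold difference. The highest of 27 bacterial control probe sets read 4.32 to 4.92, and values below the highest control of the same array are taken as background here. Prpf40b was under it on all 6 arrays and Prpf39 on 1, while the other 44 members were above it on every array. As a check of the treatment, 13 AHR target genes had median TCDD minus dioxane differences of 0.82 in thymocytes, 0.24 in emigrant pair 1 and 1.60 in emigrant pair 2. The check was weakest in emigrant pair 1, where 5 of the 13 were lower with TCDD, against 3 in thymocytes and 1 in emigrant pair 2. Both arrays of emigrant pair 1 stood apart, with summed levels of 18 neutrophil and mast cell genes of 13.73 and 14.34 against 9.49 to 11.91 elsewhere, and of 10 erythroid genes of 12.74 and 12.58 against 8.43 to 10.03. The summed level of 20 DN2 and DN3 T-lineage genes was 10.60 and 10.62 there against 11.76 to 13.62. Bcl11b, which commits cells to the T lineage, measured 4.04 and 3.87, under the highest control of those arrays. Cd4 measured 4.93 to 5.19 and Cd8a 4.62 to 5.50 over the 6 arrays, close to the controls.

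Most splicing factors measured lower with TCDD, by a small amount in most cases, and none passed the test. The fit over both cell sources used 3 TCDD against 3 dioxane arrays, with cell source in the model. In it 34 of 46 members were lower, against 6546 of 12393 genes (52.8%). The 34 include Srsf9, Sf3b3 and Prpf40b, at only -0.0007, -0.004 and -0.02. The median log2 difference over the members was -0.29, against -0.02 over all genes. It was -0.14 without dioxane emigrant array 2, -0.19 without TCDD emigrant array 1 and -0.17 without emigrant pair 2. limma called 0 of 12393 genes (0%) at an adjusted p under 0.05, and the smallest adjusted p was 0.483 over all genes and 0.811 over the members. At an unadjusted p under 0.05 it gave 8 of 46 members on the lower side, where 326 of 12393 genes (2.63%) met the same limit, and 0 members on the higher side, where 333 genes (2.69%) did. The 8 were Srsf2, Srsf6, Hnrnpd, Hnrnpm, Hnrnpul1, Sf3b1, Prpf3 and Prpf4b. In bulk RNA a lower level in each cell and a smaller share of cells with a high level cannot be told apart.

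The direction was shared between pairs for many members. TCDD was lower than dioxane in all 3 pairs for 19 of 46 members (41.3%), against 2160 of 12393 genes (17.4%), and higher in all 3 pairs for 1 member, Hnrnph2 (2.17%), against 1909 genes (15.4%). The 19 comprised 4 SR, 8 hnRNP, 2 SF3 and 5 PRPF genes. Leaving out emigrant pair 1, 30 members (65.2%) were lower in both remaining pairs, against 3968 genes (32%). Leaving out emigrant pair 2 gave 20 members (43.5%) against 3220 genes (26%), and leaving out the thymocyte pair gave 26 members (56.5%) against 3698 genes (29.8%). Pair by pair, the member median was -0.23 in thymocytes, -0.25 in emigrant pair 1 and -0.33 in emigrant pair 2, with 31, 29 and 42 of the 46 members below 0. Over all genes the same medians were 0.01, -0.02 and -0.02, with 6011, 6422 and 6774 of 12393 genes below 0.

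**Figure D1:**
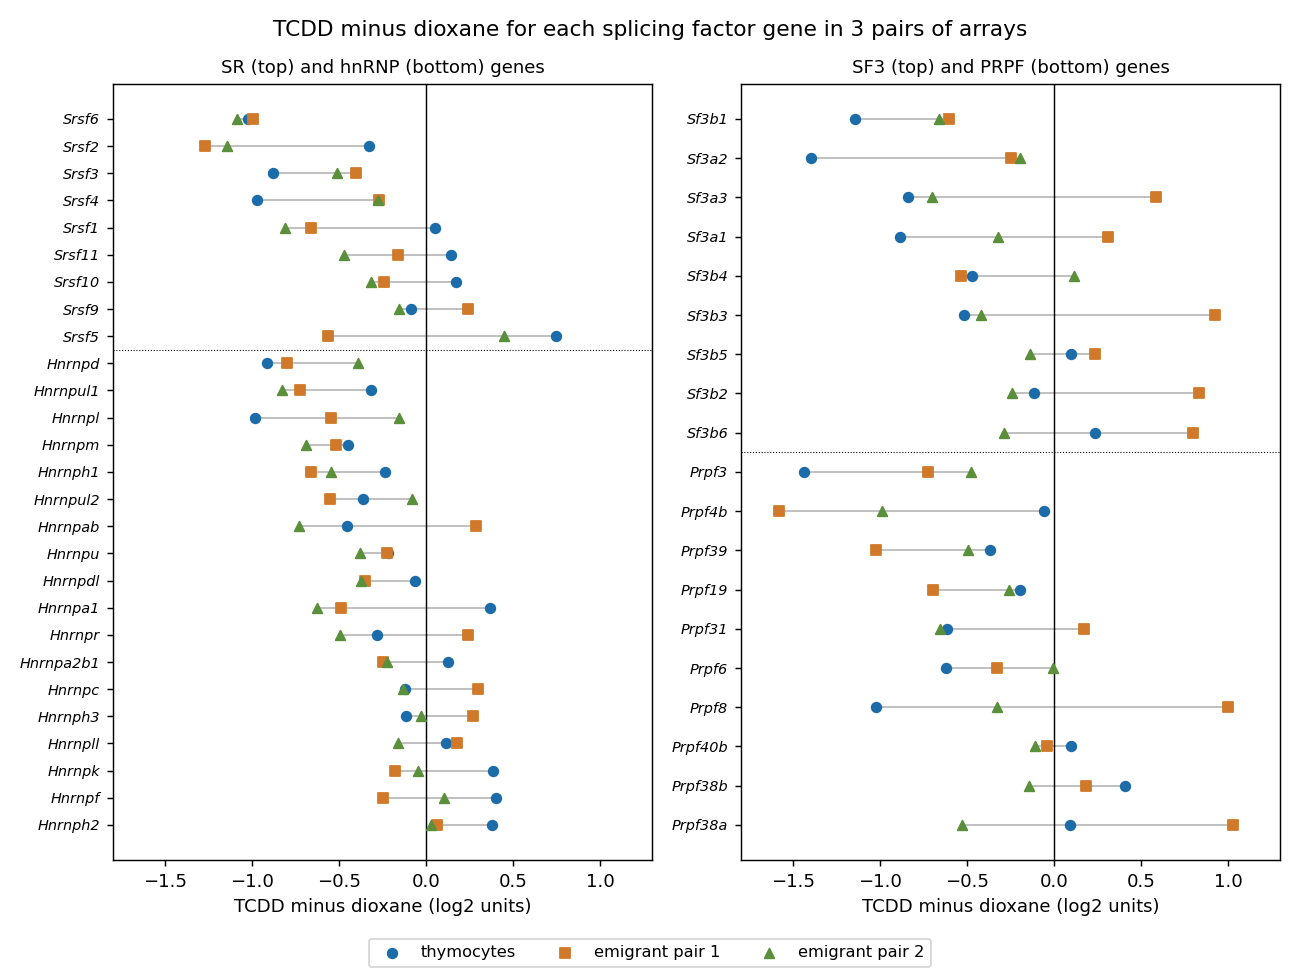
TCDD minus dioxane (log2 units, horizontal axis) for each of the 46 members, with 1 symbol for each of the 3 pairs and a line from the lowest to the highest pair. Srsf6, Hnrnpd, Hnrnpm, Hnrnpul1, Sf3b1 and Prpf3 have all 3 symbols left of 0, and most symbols of emigrant pair 2 lie left of 0 (42 of 46).

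A stricter reading, which does not rely on the pairs, is whether the groups overlapped. All 3 TCDD arrays were below all 3 dioxane arrays for 9 of 46 members (19.6%), against 571 of 12393 genes (4.61%). These were Srsf2, Srsf6, Hnrnpd, Hnrnpdl, Hnrnpm, Hnrnpu, Hnrnpul1, Sf3b1 and Prpf3. The opposite order was found for 0 members, against 430 genes (3.47%). The looser count, of those lower in all 3 pairs, was repeated without dim probe sets, which make up more of all genes than of the members. The overlap count was not repeated in this way. Among probe sets above the controls on all 6 arrays, 45 of 97 member probe sets (46.4%) were lower in all 3 pairs, against 1726 of 9246 single-gene probe sets (18.7%).

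A measure of RNA quality also differed between the treatments in each pair. The 3' minus 5' signal of actin, which is larger when RNA is shorter or amplification less complete, was 3.48 with dioxane and 4.15 with TCDD in thymocytes, 3.06 and 3.77 in emigrant pair 1, and 3.01 and 3.36 in emigrant pair 2. That of Gapdh was 6.10 and 5.86, 4.75 and 5.60, and 4.69 and 4.75. The transferrin receptor gave 0.47 and 0.62, 0.19 and 0.40, and 0.56 and 0.50. Cell cycle genes also measured lower with TCDD in 2 pairs, with medians over 27 genes of -0.58 in thymocytes, 0.09 in emigrant pair 1 and -1.14 in emigrant pair 2. Of these 27 genes, 26 were lower over both sources and 12 (44.4%) were lower in all 3 pairs, a share like that of the members. For 6 of the 27 all TCDD arrays were below all dioxane arrays, against 571 of 12393 genes (4.61%). Markers of other cells moved with treatment too. The 20 macrophage and dendritic cell genes had pair medians of 0.05, 0.50 and 1.61, with 0 lower over both sources and 11 higher in all 3 pairs, and summed levels of 11.07 to 14.44 with dioxane and 11.97 to 14.75 with TCDD. For the 18 neutrophil and mast cell genes the medians were 0.05, 0.63 and 0.18, with 1 lower over both sources, and for the 20 DN2 and DN3 genes -0.42, 0.12 and -0.47, with 15 lower. The part of RNA quality, cell makeup and proliferation in the member differences was not tested.

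The SR family held the most negative single difference over both sources, that of Srsf6. Over both sources 8 of 9 SR genes measured lower, though Srsf9 only at -0.0007. The median was -0.47, and the pair medians were -0.09 in thymocytes, -0.40 in emigrant pair 1 and -0.47 in emigrant pair 2. Srsf2, Srsf3, Srsf4 and Srsf6 were lower in all 3 pairs. On their chosen probe sets, Srsf1, Srsf10 and Srsf11 were lower in the emigrant pairs but not in thymocytes. This exception rests on the probe set, since other probe sets of these genes were lower in all 3 pairs. These were 4 of 6 for Srsf1, 1 of 4 for Srsf10 and 1 of 2 for Srsf11. None passed the test. Srsf2, Srsf3 and Srsf6 are classical members of the family that bind exonic enhancers, and Srsf1 is its founding member.

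Srsf6 measured 10.23 with dioxane and 9.21 with TCDD in thymocytes, 9.35 and 8.36 in emigrant pair 1, and 10.23 and 9.14 in emigrant pair 2. The 3 pair differences of -1.02, -0.99 and -1.09 were nearly equal, and every TCDD array was below every dioxane array. The fitted difference was -1.03 ± 0.32 (log2, SE, 3 arrays per treatment), which is 2.05-fold higher with dioxane, at an unadjusted p of 0.0201 and a limma adjusted p of 0.811. Its other probe sets were lower as well, at -0.45 and -0.74 as means over the pairs.

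Srsf2 measured 9.54 and 9.21 in thymocytes, 10.35 and 9.08 in emigrant pair 1, and 10.21 and 9.07 in emigrant pair 2, dioxane first. The groups did not overlap, although the lowest dioxane value and the highest TCDD value, both in thymocytes, were 0.33 apart. The fitted difference was -0.91 ± 0.23 (log2, SE), with an unadjusted p of 0.00835 and a limma adjusted p of 0.811. All 4 of its probe sets were lower as means over the pairs, at -0.06 to -0.91. The least negative of them differed by 0.31 in thymocytes, -0.27 in emigrant pair 1 and -0.22 in emigrant pair 2. The size and the thymocyte direction of Srsf2 thus vary with the probe set.

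Srsf5 was the SR gene on the higher side over both sources. It measured 8.99 with dioxane and 9.74 with TCDD in thymocytes, 9.30 and 8.73 in emigrant pair 1, and 10.38 and 10.83 in emigrant pair 2. The pair differences of 0.75, -0.56 and 0.45 differed in sign, and the fitted difference of 0.21 ± 0.62 (log2, SE) was smaller than its error. Without the TCDD array of emigrant pair 2 it was -0.31.

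**Figure D2:**
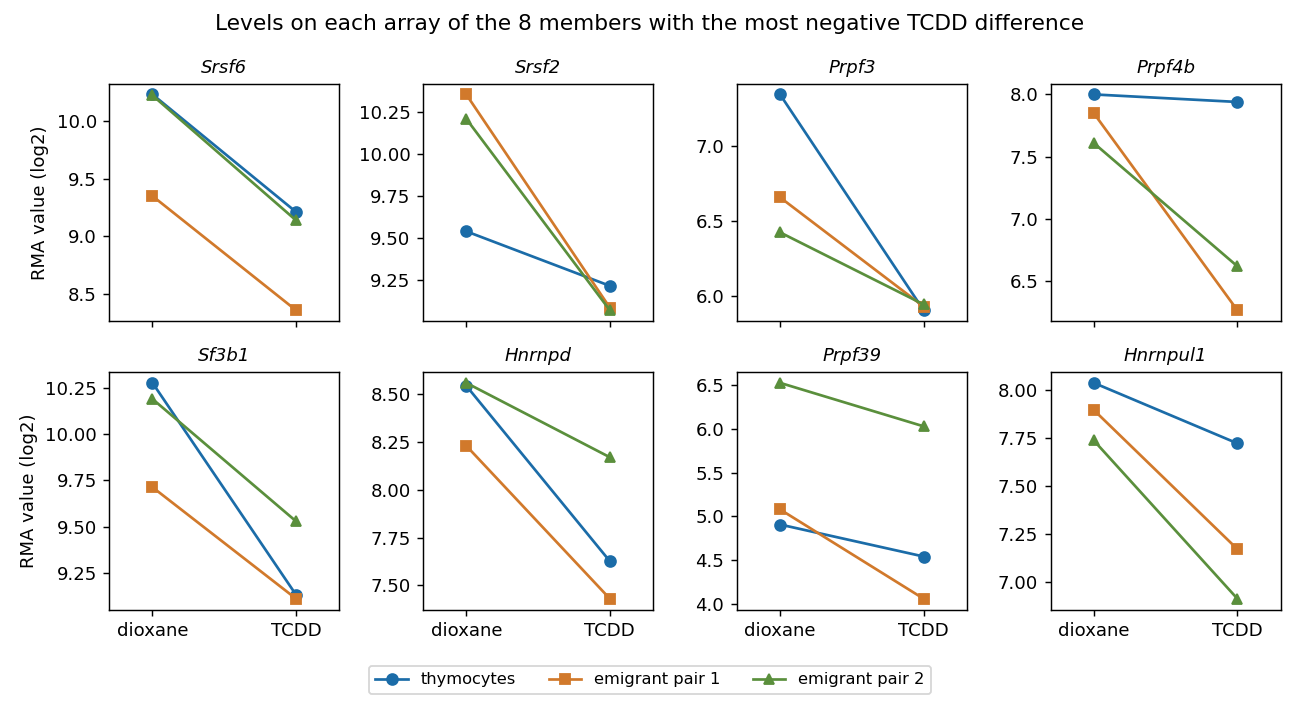
RMA values (log2, vertical axis, a separate scale in each panel) on the dioxane and TCDD array of each pair for the 8 members with the most negative TCDD difference over both sources, lines joining the pairs. Every line slopes down, and for Prpf4b the thymocyte line is nearly flat, from 8.00 to 7.94.

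The promoters of Srsf6, Srsf2, Srsf3 and Srsf4 are shown because these were the SR genes lower in every pair and TCDD acts through a DNA-binding receptor. Each is the 250 bases before the RefSeq transcription start on GRCm38.p6, on the gene's own strand, at chr2:162931258-162931507 (plus strand), chr11:116853095-116853344 (minus strand), chr17:29032410-29032659 (plus strand) and, for the first of 3 starts of Srsf4, chr4:131873387-131873636 (plus strand). Capitals mark GCGTG, the core of the AHR response element, or its reverse complement CACGC.
Srsf6: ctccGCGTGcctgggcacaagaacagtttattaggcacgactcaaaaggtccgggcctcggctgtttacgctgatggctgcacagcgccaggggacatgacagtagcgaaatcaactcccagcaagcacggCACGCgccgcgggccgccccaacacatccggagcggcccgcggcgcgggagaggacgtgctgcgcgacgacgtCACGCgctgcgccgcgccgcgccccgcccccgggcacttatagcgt
Srsf2: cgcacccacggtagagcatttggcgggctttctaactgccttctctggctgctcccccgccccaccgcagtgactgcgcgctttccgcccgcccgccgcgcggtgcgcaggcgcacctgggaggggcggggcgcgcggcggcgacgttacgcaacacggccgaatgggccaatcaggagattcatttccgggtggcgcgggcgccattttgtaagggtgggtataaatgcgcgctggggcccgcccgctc
Srsf3: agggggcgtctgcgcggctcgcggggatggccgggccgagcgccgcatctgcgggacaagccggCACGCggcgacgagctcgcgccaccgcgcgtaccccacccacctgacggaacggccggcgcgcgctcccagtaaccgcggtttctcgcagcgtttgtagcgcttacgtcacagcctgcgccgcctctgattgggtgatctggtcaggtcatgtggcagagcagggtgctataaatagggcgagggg
Srsf4: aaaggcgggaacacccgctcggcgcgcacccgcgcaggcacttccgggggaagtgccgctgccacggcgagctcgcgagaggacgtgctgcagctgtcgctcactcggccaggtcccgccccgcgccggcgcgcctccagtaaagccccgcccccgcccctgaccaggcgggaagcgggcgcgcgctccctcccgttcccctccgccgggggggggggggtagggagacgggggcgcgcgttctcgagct
These windows held 3, 0, 1 and 0 matches, so the letters were present before the starts of Srsf6 and Srsf3 and not in the windows of Srsf2 and Srsf4. A match is not evidence of binding, and an absent match in this window says nothing about the receptor.

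RefSeq promoter windows were at hand for 42 of the 46 members, some with several starts, and not for Hnrnpll, Hnrnpul2, Sf3b4 and Sf3b5. In windows of 300 bases that reach past the start, GCGTG on either strand was found in 34 of 58 member promoters (58.6%), in 45.3% of promoters of all genes tested and in 32.4% of all RefSeq promoters. The median GC content of these 3 sets was 61.0%, 59.0% and 52.7%. Of the promoters of members lower in all 3 pairs, 18 of 26 (69.2%) held it, and of those of the other members 16 of 32, with a median GC content of 64.2% and 60.3%. CACGTG, the E-box read by MYC and USF proteins, was found in 8 of 58 member promoters (13.8%) and in 9.11% of those of all genes tested. A CACGTG site holds neither GCGTG nor CACGC, though neighbouring matches can share end bases.

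Among hnRNP genes, 12 of 18 (66.7%) measured lower over both sources, against 52.8% of all genes. The family median was -0.26, with pair medians of -0.17, -0.25 and -0.30. None passed the test. Those lower in all 3 pairs were Hnrnpd, Hnrnpdl, Hnrnph1, Hnrnpl, Hnrnpm, Hnrnpu, Hnrnpul1 and Hnrnpul2. For Hnrnpul2 the other probe set was higher with TCDD in all 3 pairs, at 0.66, 0.77 and 0.35. The other probe set of Hnrnph1 was higher in thymocytes and emigrant pair 1 and lower in emigrant pair 2, at 0.49, 0.18 and -0.10. The fitted differences of the family ran from -0.70 for Hnrnpd to 0.16 for Hnrnph2, a narrower range than in the other families.

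Hnrnpd encodes AUF1, which binds AU-rich elements and affects RNA decay as well as splicing. It measured 8.54 with dioxane and 7.63 with TCDD in thymocytes, 8.23 and 7.43 in emigrant pair 1, and 8.56 and 8.17 in emigrant pair 2. The highest TCDD value lay just under the lowest dioxane value, so the groups did not overlap. Over both sources the difference was -0.70 ± 0.25 (log2, SE, limma adjusted p = 0.903).

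Hnrnpm, a protein of the nuclear matrix and the early spliceosome, measured 9.07 and 8.62 in thymocytes, 8.98 and 8.46 in emigrant pair 1, and 9.21 and 8.52 in emigrant pair 2. The dioxane arrays spanned 8.98 to 9.21 and the TCDD arrays 8.46 to 8.62. The model gave -0.55 ± 0.15 (log2, SE), at an unadjusted p of 0.0134 and a limma adjusted p of 0.811.

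Hnrnpul1, a relative of the scaffold protein Hnrnpu, measured 8.04 and 7.72 in thymocytes, 7.90 and 7.17 in emigrant pair 1, and 7.74 and 6.91 in emigrant pair 2. Both treatments were lower in emigrants than in thymocytes, and the groups were only just apart, at 7.74 against 7.72. The model gave -0.62 ± 0.18 (log2, SE, limma adjusted p = 0.811).

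The higher side of the family held small values. Hnrnph2, which binds G-runs near splice sites, measured 7.33 and 7.71, 7.86 and 7.92, and 8.26 and 8.28 in the 3 pairs, so its difference of 0.16 ± 0.20 rested mostly on thymocytes. Hnrnpf, its close relative, measured 9.85 and 10.25, 10.44 and 10.19, and 10.17 and 10.27. The sign of Hnrnpf differed between pairs, and its fitted difference of 0.09 turned to -0.34 when all its probe sets were averaged. Hnrnpl and Hnrnpll, the regulators of CD45 exons, differed by -0.56 and 0.04.

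The SF3 genes differed most between pairs. Their median was -0.52 in thymocytes, 0.31 in emigrant pair 1 and -0.29 in emigrant pair 2. Over both sources 6 of 9 were lower (66.7%, against 52.8% of all genes), with a median of -0.30. None passed the test. Sf3b1 and Sf3a2 were lower in all 3 pairs, a share of 22.2% that is near the 17.4% of all genes. None of the 9 was higher in all 3, against 15.4% of all genes.

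Sf3b1, the largest SF3B subunit and the one that clamps the branch point, measured 10.28 with dioxane and 9.13 with TCDD in thymocytes, 9.71 and 9.11 in emigrant pair 1, and 10.19 and 9.53 in emigrant pair 2. All TCDD arrays were below all dioxane arrays, and the fitted difference was -0.80 ± 0.23 (log2, SE), with an unadjusted p of 0.0155 and a limma adjusted p of 0.811. A dimmer probe set of the gene ran the other way, with 8.03 and 8.09, 7.46 and 8.28, and 7.37 and 8.85 in the 3 pairs. Its mean difference of 0.78 over the pairs is opposite to that of the brighter probe set. Which of them reads the main transcript was not tested, so the direction of Sf3b1 rests on the choice of probe set.

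Sf3a2, an SF3A subunit that joins the U2 particle to the branch site, measured 10.04 and 8.64 in thymocytes, 8.40 and 8.15 in emigrant pair 1, and 7.98 and 7.79 in emigrant pair 2. Only the thymocyte dioxane array was far above the others. Its fitted TCDD difference was -0.62 ± 0.31 (log2, SE, limma adjusted p = 0.999). Without either thymocyte array it was -0.22.

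The SF3B subunits Sf3b2, Sf3b5 and Sf3b6 were on the higher side over both sources. Sf3b6, the small subunit that contacts the branch-point adenosine, measured 9.62 and 9.85, 9.19 and 9.99, and 9.80 and 9.51. Sf3b2 measured 8.32 and 8.20, 7.31 and 8.14, and 8.35 and 8.11. Sf3b5 measured 4.91 and 5.00, 4.79 and 5.02, and 5.31 and 5.18, all within 1 unit of the highest control. For all 3 genes emigrant pair 1 gave the largest positive difference and emigrant pair 2 a negative one. The fitted differences were 0.25, 0.16 and 0.06 in the order Sf3b6, Sf3b2 and Sf3b5, and without emigrant pair 1 they were -0.03, -0.18 and -0.02.

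**Figure D3:**
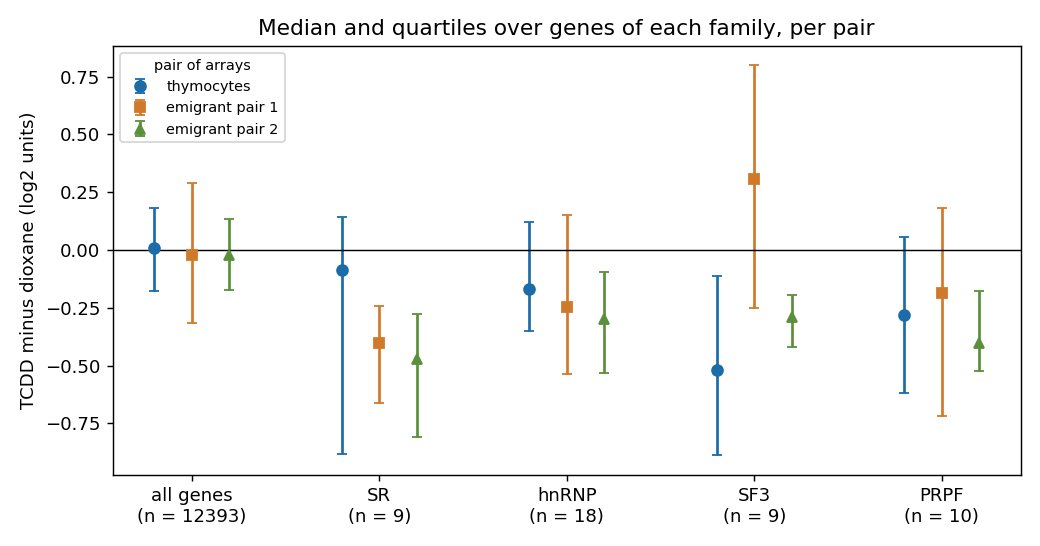
Median (symbol) and quartiles (bars) of TCDD minus dioxane in log2 units over the genes of each family and over all 12393 genes, for the 3 pairs. The SF3 median is -0.52 in thymocytes and 0.31 in emigrant pair 1, and the SR, hnRNP and PRPF medians lie below 0 in every pair.

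Of the PRPF genes, 8 of 10 measured lower over both sources, with a median of -0.34 and pair medians of -0.28, -0.18 and -0.40. None passed the test. Prpf3, Prpf4b, Prpf6, Prpf19 and Prpf39 were lower in all 3 pairs, and in emigrant pair 2 every PRPF gene was below 0, though Prpf6 only at -0.01.

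Prpf3, a protein of the U4/U6 particle, measured 7.34 with dioxane and 5.90 with TCDD in thymocytes, 6.66 and 5.93 in emigrant pair 1, and 6.42 and 5.94 in emigrant pair 2. The TCDD arrays lay within 0.1 of each other, and all dioxane arrays were higher. The fitted difference was -0.88 ± 0.22 (log2, SE), with an unadjusted p of 0.00917 and a limma adjusted p of 0.811. Prpf3 had no other single-gene probe set.

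For Prpf4b, a kinase that phosphorylates tri-snRNP proteins before activation, the TCDD difference on the chosen probe set varied by source. This probe set measured 8.00 and 7.94 in thymocytes, 7.85 and 6.27 in emigrant pair 1, and 7.61 and 6.62 in emigrant pair 2. The thymocyte values were nearly equal, while both TCDD emigrant arrays were at least 0.99 below their dioxane partners. Over both sources its difference was -0.88 ± 0.30 (log2, SE, limma adjusted p = 0.888). The difference of the TCDD effect between emigrants and thymocytes was -1.22 ± 0.45, with an unadjusted p of 0.0462 and a limma adjusted p of 1.00. Prpf4b was the only member under 0.05 in that comparison, as were 97 of 12393 genes (0.783%), and limma called 0 genes (0%) there. Its other 5 probe sets were lower too as means over the pairs, at -0.16 to -0.54, but 2 of them were higher in 1 pair. Not all of them shared the source pattern. In the order thymocytes, emigrant pair 1 and emigrant pair 2, it was seen again at 0.46, -0.63 and -0.29. It was not seen at -0.73, 0.50 and -0.41, or at -0.33, -0.01 and -0.59. The remaining probe sets were not above the controls on every array.

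Prpf39, a homologue of a yeast U1 particle protein, measured 4.91 and 4.54, 5.08 and 4.06, and 6.53 and 6.03 in the 3 pairs. The 4.06 in TCDD emigrant pair 1 lay under the highest control of that array (4.92), so that difference is bounded by background. The fitted difference of -0.63 ± 0.62 was -0.028 without TCDD emigrant array 1, -0.18 without dioxane emigrant array 2, -1.005 without dioxane emigrant array 1 and -1.15 without TCDD emigrant array 2. Prpf38a and Prpf38b, proteins of the spliceosome before activation, were the PRPF genes on the higher side. Prpf38a measured 7.86 and 7.95, 6.42 and 7.45, and 8.52 and 7.99, and Prpf38b measured 8.21 and 8.62, 8.19 and 8.37, and 8.67 and 8.52. For Prpf38a the fitted 0.20 was -0.22 without emigrant pair 1, and for Prpf38b the fitted 0.15 was -0.16 with all its probe sets averaged.

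Differences of at least 2-fold were few. In the thymocyte pair 5 of 46 members were at least 2-fold lower with TCDD (Srsf6, Sf3a2, Sf3b1, Prpf3 and Prpf8), against 346 of 12393 genes (2.79%), and 0 were at least 2-fold higher, against 351 genes (2.83%). With 1 array per treatment these counts have no replicate check. In emigrant pair 1, 3 members were that much lower (Srsf2, Prpf4b and Prpf39), against 317 genes (2.56%), and 1 was higher (Prpf38a), against 454 genes (3.66%). In emigrant pair 2, Srsf2 and Srsf6 were that much lower, against 268 genes (2.16%), and 0 members were higher, against 425 genes (3.43%). Srsf2 and Srsf6 were each past 2-fold in 2 pairs, though Srsf6 in emigrant pair 1 missed it by little, at -0.99. Prpf8, the central U5 scaffold protein, differed by -1.02 in thymocytes and, just short of 2-fold on the higher side, by 1.00 in emigrant pair 1.

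The emigrant arrays alone, which also enter the fit over both sources, allow a test within 1 cell source (2 TCDD against 2 dioxane arrays). The member median was -0.23, with 34 of 46 lower, against 6628 of 12393 genes. limma called 0 of 12393 genes (0%), with a smallest adjusted p of 1.00. At an unadjusted p under 0.05 there were 255 genes in all. On the lower side 4 members met it, Srsf1, Srsf2, Hnrnpul1 and Prpf4b (8.70%), against 101 genes (0.815%). Srsf2 differed by -1.21 ± 0.23 and Prpf4b by -1.28 ± 0.26 (log2, SE). Leaving out dioxane array 2 moved the median to -0.04, TCDD array 1 to -0.06, TCDD array 2 to -0.34 and dioxane array 1 to -0.48. The numbers themselves differed: emigrant array 1 minus emigrant array 2 gave a member median of -0.39 with dioxane and -0.16 with TCDD.

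Other probe sets of the same genes mostly pointed the same way. Of the 32 members with more than 1 probe set, 13 had all of them lower with TCDD as means over the pairs, 3 had all of them higher, and 16 had mixed signs. TCDD was lower in all 3 pairs for 57 of 123 member probe sets (46.3%), against 3590 of 20380 single-gene probe sets (17.6%). By family the count was 18 of 28 for SR genes, 22 of 50 for hnRNP genes, 7 of 22 for SF3 genes and 10 of 23 for PRPF genes. Probe sets of 1 gene read the same RNA and are not independent.

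The size of the difference varied between probe sets of a gene. The 6 probe sets of Srsf1 were all lower, from -0.28 to -1.56, and the one used here, the brightest, gave -0.47. The most negative of them differed by -1.07, -2.19 and -1.42 in the 3 pairs. The 6 probe sets of Srsf3 spanned -0.23 to -1.42, and the 5 of Hnrnpu, a scaffold protein of chromatin and RNA, -0.27 to -1.38. Each of the 6 probe sets of Hnrnpdl, a paralog of Hnrnpd, was lower in all 3 pairs. These genes were picked after their values were seen, for having 5 or more probe sets of 1 sign, which also holds for Prpf4b, described above. In Srsf1, Srsf3, Hnrnpu and Hnrnpdl other probe sets gave a difference more negative than the brightest one, whereas in Prpf4b the brightest gave the most negative. For Prpf6, a bridging protein of the tri-snRNP, the chosen probe set gave -0.32 and another 0.80, and the chosen one measured 8.13 and 7.51, 6.99 and 6.66, and 7.37 and 7.36.

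**Figure D4:**
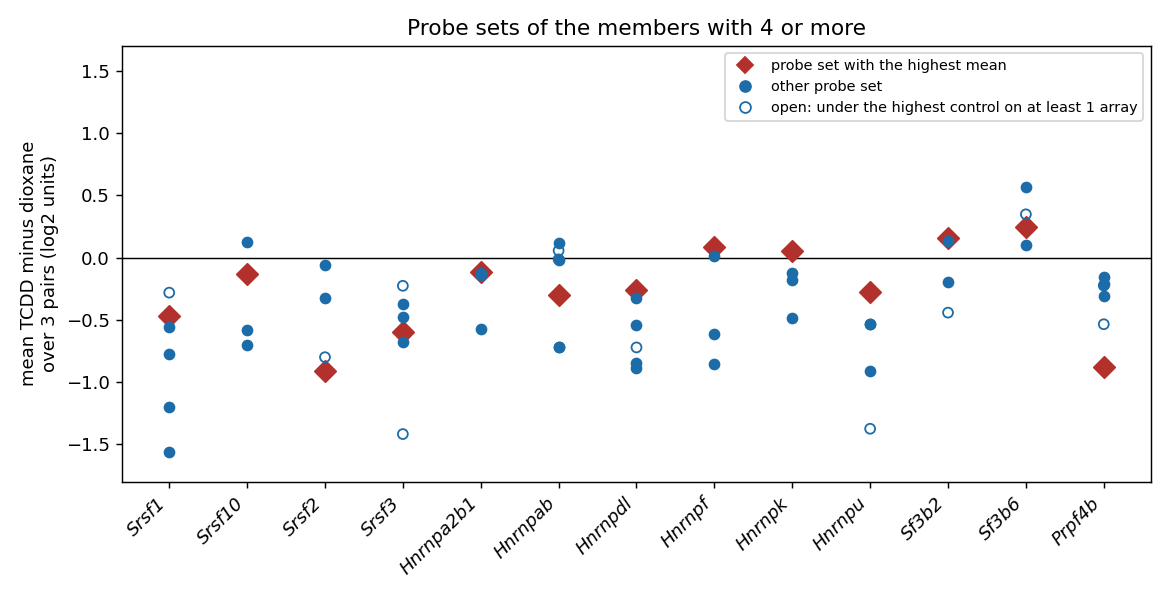
Mean TCDD minus dioxane over the 3 pairs (log2 units, vertical axis) of every probe set of the members with at least 4 probe sets. Diamonds are the probe set with the highest mean level, circles the others, and open circles those under the highest control on at least 1 array. All 6 Srsf1 circles and diamonds lie between -0.28 and -1.56, whereas those of Hnrnpf and Sf3b2 fall on both sides of 0.

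Between the cell sources (4 emigrant against 2 thymocyte arrays, with treatment in the model) the members differed little as a group. The median emigrant minus thymocyte difference was -0.10 with 30 of 46 lower, against -0.04 with 6937 of 12393 lower over all genes. limma called 0 of 12393 genes (0%), with a smallest adjusted p of 0.165 over all genes and 0.501 over the members. At an unadjusted p under 0.05, 4 members were lower in emigrants (Sf3a2, Prpf19, Prpf4b and Prpf6), against 483 genes (3.9%), and 2 were higher (Hnrnph2 and Hnrnpul2), against 397 genes (3.2%). All 4 emigrant arrays were below both thymocyte arrays for 7 members, against 1336 genes (10.8%), and above both for 3, against 677 genes (5.46%). The 7 were Srsf9, Hnrnpc, Hnrnph3, Sf3a2, Prpf4b, Prpf6 and Prpf19, and the 3 were Srsf11, Hnrnph2 and Hnrnpul2.

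Sf3a2 had the largest difference between the sources, at -1.26 ± 0.32 (log2, SE, limma adjusted p = 0.501), with thymocyte values of 10.04 and 8.64 against 7.79 to 8.40 in emigrants. Prpf19, the ubiquitin ligase at the heart of the Prp19 complex, measured 10.52 and 10.32 in thymocytes, 10.08 and 9.38 in emigrant pair 1, and 9.36 and 9.10 in emigrant pair 2. All its emigrant values were below its thymocyte values, and the difference was -0.94 ± 0.26 (limma adjusted p = 0.545). Prpf6 differed by -0.72 and Sf3b4, an SF3B subunit that measured 9.07 and 8.60, 8.83 and 8.30, and 8.02 and 8.13, by -0.52.

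On the higher side, Hnrnpul2, another relative of Hnrnpu, measured 7.87 and 7.51 in thymocytes, 8.51 and 7.96 in emigrant pair 1, and 8.73 and 8.65 in emigrant pair 2. Its emigrant minus thymocyte difference was 0.77 ± 0.24 (limma adjusted p = 0.583). The other probe set of Hnrnpul2 did not repeat this. That probe set measured 6.98 and 7.64 in thymocytes, 6.05 and 6.82 in emigrant pair 1, and 7.35 and 7.70 in emigrant pair 2. Srsf11, an SR-related protein, measured 8.34 and 8.48, 8.82 and 8.66, and 9.66 and 9.19, and differed by 0.67. For Srsf11 the emigrant arrays numbered 2 lay above those numbered 1. Prpf39 and Srsf5 differed by 0.70 and 0.45, but by -0.16 and -0.35 without emigrant pair 2, so their direction rests on those arrays. The emigrant arrays also carried the blood cell transcripts given above, and the part of cell makeup in these differences was not tested.

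The rest of the splicing machinery was represented by 112 further genes in 7 lists. Over both sources 68 of 112 (60.7%) were lower, against 52.8% of all genes. The median over the 112 was -0.08, and limma called none of them. At an unadjusted p under 0.05, 7 of them were lower, against 2.63% of all genes, and 0 higher, against 2.69%. TCDD was lower in all 3 pairs for 29 of 112 (25.9%), against 17.4% of all genes, and higher in all 3 for 11, against 15.4%. The pair medians were -0.07 in thymocytes, 0.10 in emigrant pair 1 and -0.24 in emigrant pair 2.

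These lists were not alike. The 32 other RNA-binding regulators of splicing had a median of -0.28, with 13 lower in all 3 pairs (40.6%) and pair medians of -0.01, -0.23 and -0.41. The 11 Sm and LSm core proteins, which form the ring of each spliceosomal particle, had pair medians of 0.04, 0.47 and -0.20. For the 15 U5, tri-snRNP and helicase genes these were -0.16, 0.29 and -0.15, and for the 14 genes of U1, U2AF and branch-point recognition -0.03, 0.08 and -0.08. The 15 Prp19 complex and step factors gave -0.11, 0.19 and -0.10, the 17 SR-related and exon junction genes -0.12, 0.17 and -0.25, and the 8 SR protein kinases and transporters -0.01, 0.21 and -0.34. In 6 of these 7 lists the median was above 0 in emigrant pair 1 and below 0 in emigrant pair 2, as it was for the SF3 genes. No test compared the lists.

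**Figure D5:**
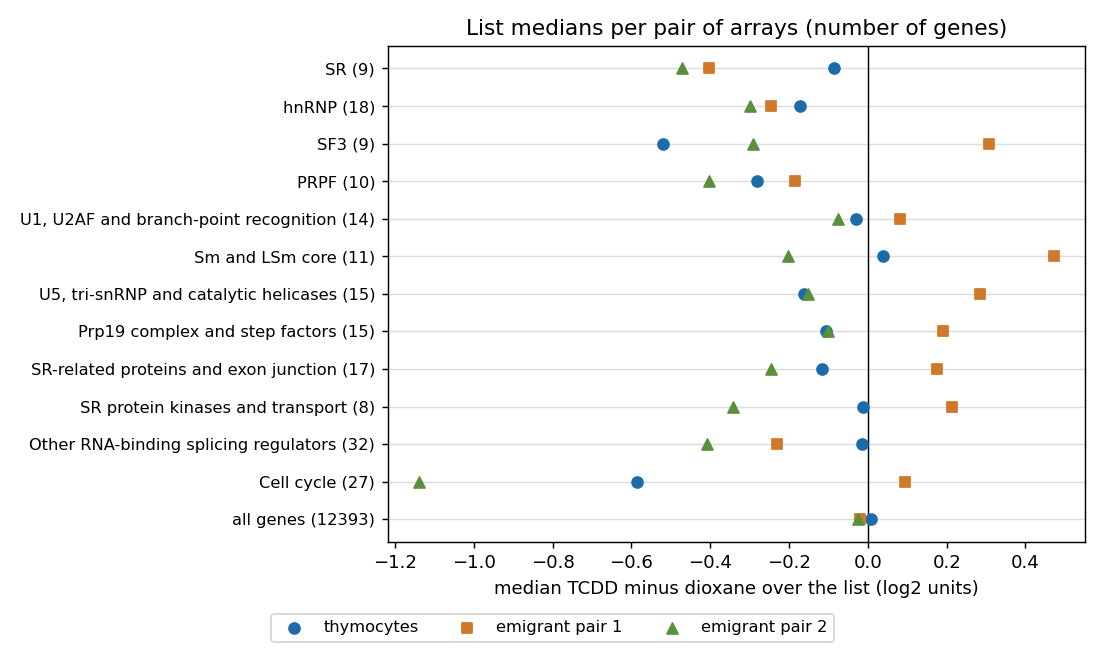
Median TCDD minus dioxane (log2 units, horizontal axis) over each list, with the number of genes in brackets and 1 symbol for each pair. The SR, hnRNP and PRPF families lie left of 0 in all 3 pairs, most core spliceosome lists lie right of 0 in emigrant pair 1, and the cell cycle median runs from 0.09 to -1.14.

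Of these 112 genes, those with the most negative differences were RNA-binding regulators. Sfpq, a paraspeckle and splicing protein, measured 8.09 with dioxane and 7.63 with TCDD in thymocytes, 7.91 and 6.92 in emigrant pair 1, and 8.08 and 7.14 in emigrant pair 2. Its groups did not overlap, and its difference was -0.79 ± 0.19 (log2, SE, limma adjusted p = 0.811). Rbmx, an hnRNP G protein, differed by -0.85 and Syncrip, also called hnRNP Q, by -0.73, each lower in every pair. Rbm25 differed by -0.91, of which most came from emigrant pair 1 (9.03 and 6.93), and Rbm39 by -0.78. The most positive were Bud31 (0.80), Snrpd3, an Sm ring protein (0.75), Srpk2, an SR protein kinase (0.60), Son, a nuclear speckle scaffold (0.58), and the helicase Aqr (0.56). As means over the pairs, 4 of the 6 probe sets of Son and 4 of the 5 of Aqr were lower with TCDD, so their place here rests on the probe set chosen. Signs were mixed for the others as well, with 2 of 4 probe sets lower for Srpk2 and Syncrip, 3 of 5 for Rbm25, 5 of 9 for Rbm39, 3 of 4 for Rbmx, 4 of 5 for Sfpq, and 1 of 3 for Bud31 and Snrpd3. Bud31 rested on emigrant pair 1, at 6.45 and 8.60, while Snrpd3 was higher in every pair, with 7.37 and 8.53, 7.76 and 8.40, and 7.12 and 7.57. None of these 10 genes passed the test.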

How the data were processed

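The data were RMA summaries of 6 Affymetrix MOE430A arrays. The authors deposited log2 RMA signals, background-corrected and normalised across arrays, per the submitters' processing notes and the series' mention of the Bioconductor affy package, with versions not given in the sources used here. Differences of dim genes are understated by this method.

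No further normalisation was applied. Of 22690 probe sets, 64 controls were left out, 691 named several genes and 1555 none. The 7 probe sets that name Hnrnpa1 or Hnrnpa3 with another gene were not used, and Hnrnpa3 is not analysed here. The brightest single-gene probe set on average stood for each gene.

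Linear models were fitted to 12393 genes with limma 3.58.1 in R 4.3.3 (lmFit, eBayes with 1 prior variance), with Benjamini-Hochberg adjustment over all of them and calls at an adjusted p under 0.05. The comparisons were TCDD against dioxane over both sources (residual degrees of freedom 3) and in emigrants (2), emigrants against thymocytes (3) and the difference of the TCDD effect (2). A lone array is assumed to vary like the others. The number of arrays limits the precision. The code was tested on simulated data. Tables were made with Python 3.11.15.

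Values on every array were given for the 8 most negative and 8 most positive TCDD differences, the 6 smallest p, the 5 largest source differences each way, and members whose probe sets disagreed by at least 1 log2 unit; of the other splicing genes, the 5 largest each way were named. The members and gene lists were chosen with earlier results of these data known. Alternatives were other normalisations, a level filter, other choices of probe set, an intensity trend, other covariates, a block for array number, and leaving out arrays.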

Additional observations from a re-analysis of the deposited data

How the results depend on the processing

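limma called 0 of the 46 members under every alternative run, so no call of a member depends on a setting. The member median over both sources was -0.29 and stayed below 0 under all of them. It was -0.20 with the mean of all probe sets of a gene, -0.17 without both emigrant arrays numbered 2, and -0.41 to -0.14 when single arrays were left out; it was lowest without the dioxane array numbered 1 and nearest 0 without the dioxane array numbered 2. The emigrant median ran from -0.48 to -0.039 when single arrays were left out. In thymocytes the median was -0.12 with the mean of all probe sets and -0.30 when probe sets open to cross-hybridisation (_x_at, _s_at) were avoided, a choice made after seeing the data.

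Members lower in all pairs numbered 30 (65.2%) without the emigrant pair numbered 1, against 32% of all genes. Members higher in all 3 pairs numbered 1 in the main setting (2.17%), against 15.4% of all genes. They numbered 2 with the mean of all probe sets, 0 with quantile normalisation and 2 with the _x_at and _s_at probe sets avoided. They numbered 3 without the emigrant pair numbered 1 and 6 without the emigrant pair numbered 2. With a pair left out only 2 pairs had to share a direction, so those counts can only rise. The share of all genes that were higher is not given here for these other settings. The omission of pairs was also added after seeing the data.

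The emigrant arrays of 1 number deviated together (r = 0.56 over genes), but no label gives the number a meaning, 1 dioxane array carries none, and 2 pairs do not settle it. With the replicate block the TCDD median over both sources was -0.29. The block cannot move it, because each number holds a TCDD and a dioxane emigrant array. Between the sources, the block leaves only the emigrant arrays numbered 1 to be compared with thymocytes. That fit called 160 of 12393 genes, 0 of them members, and is not a block-corrected difference of all emigrant arrays. The comparison of sources gave 225 genes without both emigrant arrays numbered 2, and 0 to 7 when single emigrant arrays were left out.

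Some small differences turned sign. For TCDD against dioxane over both sources, with the mean of all probe sets, Sf3b2 gave -0.089, Prpf38b -0.16, Hnrnpf -0.34, Prpf6 0.16 and Hnrnpul2 0.13. With the _x_at and _s_at probe sets avoided Hnrnpf gave -0.62. Without both emigrant arrays numbered 1, Sf3b6 gave -0.028, Prpf38a -0.22, Sf3b2 -0.18 and Sf3b5 -0.022. With single arrays left out, Srsf5 ran from -0.31 to 0.89, Prpf38a from -0.42 to 0.78, Sf3b2 from -0.18 to 0.42, Hnrnpf from -0.073 to 0.21, Sf3b5 from -0.082 to 0.22 and Srsf11 from -0.36 to 0.12. Between the sources, Prpf39 gave -0.16 and Srsf5 -0.35 without both emigrant arrays numbered 2. The replicate block gave the same values by design, since it leaves only the emigrant arrays numbered 1 to compare with thymocytes. The causes were not tested, beyond the fewer arrays or other probe sets that each setting uses.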
